A study of Erythranthe pardalis x Erythranthe guttata and Erythranthe pardalis with 20 samples.

Results

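Early hybrid seeds, collected 2 and 4 days after pollination (DAP), were compared with late hybrid seeds, collected at 6 and 8 DAP. The libraries were chosen by the age on their labels, which took in 15 of the 20 libraries of the series. Of these, 7 were early (4 at 2 DAP and 3 at 4 DAP) and 8 were late (4 at 6 DAP and 4 at 8 DAP). All seeds came from 1 cross, between the inbred line SEC39 of Mimulus pardalis as mother and the inbred line CSS4 of M. guttatus as pollen parent. The other 5 libraries were unfertilized ovules of SEC39 (0 DAP), which entered the estimate of the spread between libraries but not the comparison. The early and late seeds thus shared both parents and differed by label only in age. No seeds of the reciprocal cross or of selfed parents belong to the comparison, so that an age difference cannot be told apart from one that hybrid seeds alone would show.

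After double fertilization, the seeds of flowering plants hold a diploid embryo and a triploid endosperm inside a seed coat that comes from the mother. In Mimulus the endosperm divides by cell walls from its first divisions onward. By the developmental series of the study, the early seeds held young embryos of few cells, and the late seeds held globular embryos at 6 DAP and heart-shaped embryos at 8 DAP. In Arabidopsis, the steps from a globular to a maturing embryo bring reserve proteins, oil bodies and a cuticle, while the seed coat builds thickened and lignified walls. The whole seed was sequenced, so that a tissue with more cells and a tissue with more RNA of a gene per cell cannot be told apart.

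Total counts ran from 12134820 to 16529554 in early and from 11002428 to 13738213 in late libraries. Where a gene had no count in a library, up to 3 counts remain possible, or 0.181 to 0.273 CPM (counts scaled to the library total) depending on the library, and such limits cover counting error only. Of the 2 DAP libraries, replicates 1 and 3 stood apart. Correlations were taken on log2(normalized CPM + 1) across the genes tested, with normalized CPM as defined below. The mean correlation of replicate 1 with the other 2 DAP libraries was 0.9018, below its 0.9585 with the 4 DAP libraries. That of replicate 3 was 0.9242, against 0.9425 and 0.9479 for replicates 4 and 2. Replicate 1 also had the lowest share of counts in its top 100 genes, at 15.5% against 22.2% to 25.3%. For replicate 3, the mean correlation with the 6 DAP libraries was 0.90, against 0.855 to 0.868 for the other 2 DAP libraries. By the numbers in the study's library names, 2 DAP replicates 2 to 4 belong to libraries 15 to 20, together with 3 ovule libraries, while 2 DAP replicate 1 and all 4, 6 and 8 DAP libraries lie in 1 to 14. The sources describe pools of tissue from several plants in different words, and p-values may therefore measure technical as well as biological spread.

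Of 20242 genes tested, 4375 (21.6%) differed between early and late seeds in edgeR's quasi-likelihood test, with the false discovery rate (FDR) held at 0.01. Late seeds were higher for 2297 genes (11.3%) and lower for 2078 (10.3%). The test gave each age equal weight on the log2 scale, so that a gene with very low counts at a single age of a pair could fall strongly even if the other age of that pair kept its level. The log2 fold change, late minus early, had a median of 1.87 among the genes that were higher and of -1.47 among those that were lower, against -0.06 over all genes tested. A change of at least 1 on this scale was seen in 1928 of the higher and 1532 of the lower genes, and a change of at least 5 in 273 and 112. With scaling by total counts alone, in place of TMM (trimmed mean of M-values) scaling, the share of higher genes among those called was 38.4% instead of 52.5%, and the median of all genes was -0.29. Each gene called under both scalings kept its direction, in 3792 genes.

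**Figure D1:**
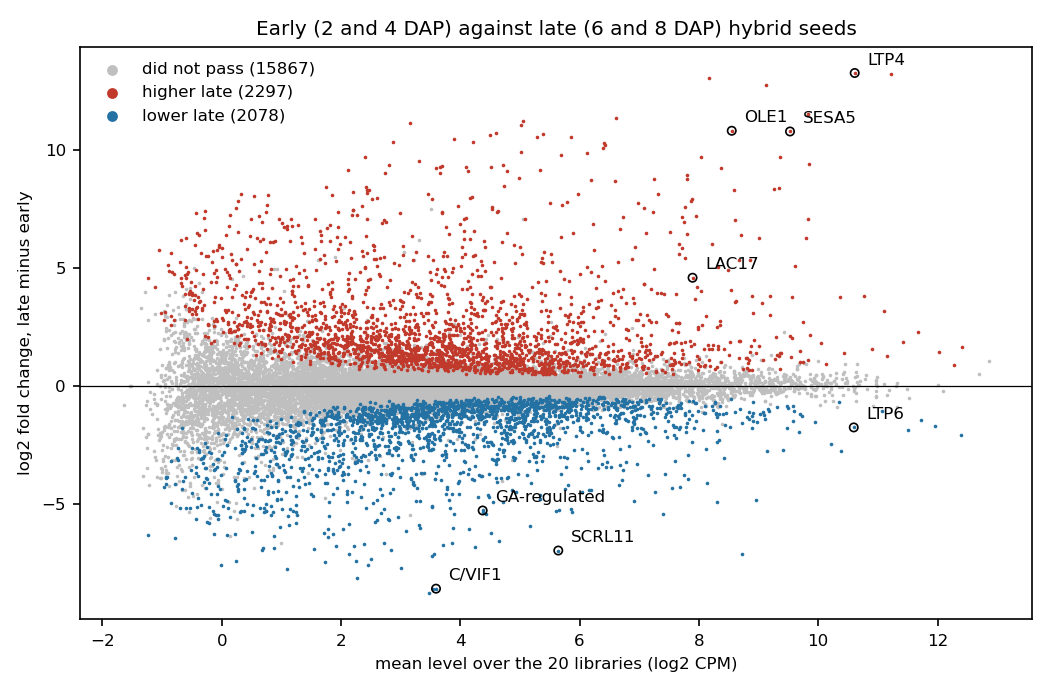
Log2 fold change between late and early seeds (vertical axis, late minus early) against the mean log2 CPM over the 20 libraries (horizontal axis) for the 20242 genes tested. Red points are the 2297 genes that were higher late, blue points the 2078 that were lower late, grey points those that did not pass an FDR of 0.01, and circles mark 8 genes named in the text.

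Without a test, early and late libraries did not overlap in 1827 genes (9.03%). In 1032 of them (5.1%) the lowest late library lay above the highest early library, and in 795 genes (3.93%) the highest late library lay below the lowest early library. The higher genes mostly had their highest mean at the last age: 1640 of 2297 (71.4%) at 8 DAP and 655 (28.5%) at 6 DAP. The lower genes were spread over both early ages, with the highest mean at 2 DAP in 1098 of 2078 (52.8%) and at 4 DAP in 965 (46.4%).

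The ages within the early and late seeds were not alike. Between 2 and 4 DAP, 40 genes (0.198%) differed, 4 of them higher (0.0198%) and 36 lower (0.178%) at 4 DAP. The 2 DAP libraries differed among themselves, as given above, and of these replicates 2 to 4 lie outside libraries 1 to 14. This low count therefore does not show that the 2 ages were alike. Between 6 and 8 DAP, 2892 genes (14.3%) differed, 1522 higher (7.52%) and 1370 lower (6.77%) at 8 DAP. Across the 2 sets, the closest ages, 4 and 6 DAP, differed in 1487 genes (7.35%), 1057 of them higher (5.22%) and 430 lower (2.12%) at 6 DAP. Between 2 and 6 DAP 2587 genes differed (12.8%), 1234 higher (6.1%) and 1353 lower (6.68%) at 6 DAP. At 8 DAP, 4081 genes (20.2%) differed from 2 DAP, 2003 of them higher (9.9%) and 2078 lower (10.3%), and 4666 (23.1%) differed from 4 DAP, 2495 higher (12.3%) and 2171 lower (10.7%). These pairs share libraries and are given side by side. Within libraries 1 to 14 alone, where 2 DAP is represented by replicate 1, 7277 genes differed between early and late seeds, 3869 higher and 3408 lower late. With the library series as a covariate 6237 genes did.

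**Figure D2:**
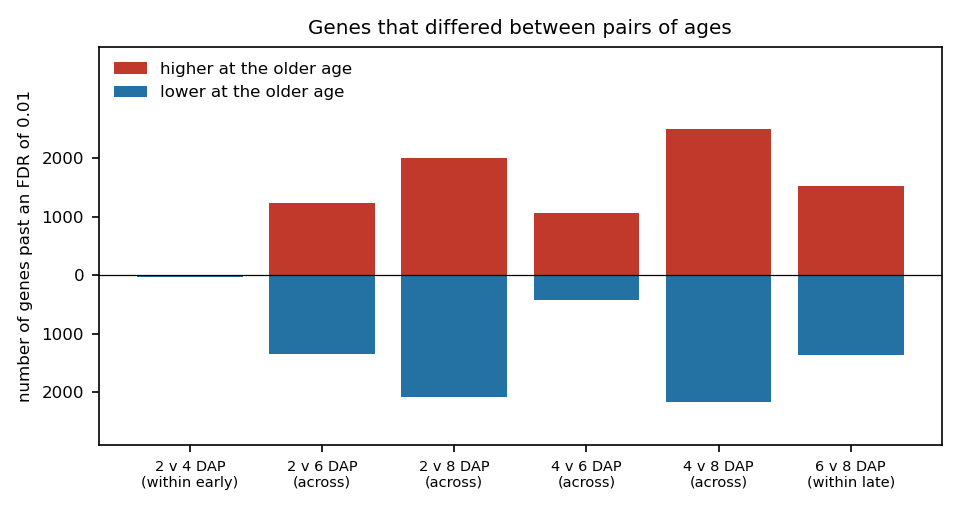
Number of genes past an FDR of 0.01 in edgeR's quasi-likelihood test for each pair of ages (horizontal axis), with genes higher at the older age drawn upward in red and genes lower at the older age drawn downward in blue. The bar within the early seeds, 2 against 4 DAP, is the shortest with 40 genes, and 4 against 8 DAP is the longest pair of bars with 4666.

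The number of genes detected per library did not differ between the sets beyond the spread between libraries. Genes with a CPM of at least 1 numbered 16883 to 18305 in early libraries (median 17849) and 16813 to 18082 in late libraries (median 17575). The mean over ages was 17701 in early and 17505 in late seeds, a late minus early difference of -195.8 (two-sided exact permutation test over libraries, p = 0.474). Per age the mean was 17395 ± 630 (SD, n = 4), 18007 ± 155 (n = 3), 17922 ± 157 (n = 4) and 17088 ± 291 (n = 4) at 2, 4, 6 and 8 DAP. The 100 genes with the most counts of each library held 15.5% to 25.3% of the counts in early libraries (median 19.8%) and 20.7% to 25.3% in late libraries (median 23.4%), a difference in the mean over ages of 2.67 percentage points (two-sided exact permutation test, p = 0.0536). Within libraries 1 to 14, the differences were -650.9 genes (exact permutation p = 0.0384) and 5.77 percentage points (exact permutation p = 0.000505). The p for the top genes also came to 0.0356, 0.0167, 0.0427 and 0.0481 (exact permutation tests) without 2 DAP replicate 2, 2 DAP replicate 3, 6 DAP replicate 2 or 8 DAP replicate 2.

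The 8 largest rises were drawn from called genes with a homologue and no overlap between early and late libraries. Separate libraries were thus a condition of the choice and not a further result. These 8 held 3 lipid transfer protein genes, 2 GDSL-type lipase genes, an oleosin, a cytochrome P450 and a zinc finger gene. Genes are named here by the nearest Arabidopsis homologue that the study lists, and levels are normalized CPM, that is CPM of the TMM-scaled library total. Fold changes are log2 values with an approximate standard error (SE). This is the size of the fold change divided by the square root of the F statistic of its test. Each adjusted p from edgeR was corrected across the whole table by the Benjamini-Hochberg method. The lipid transfer protein gene LTP4 (Migut.M01356), of a family of small proteins that carry lipids to the cell surface, was at 0 to 1.53 in early libraries (median 0.121) and at 94.4 to 7445 in late libraries (median 4292). No early library came near the lowest late library, and the log2 fold change was 13.24 ± 0.96 (edgeR adjusted p = 4.41e-09). Within the late seeds its mean rose from 781 at 6 DAP to 7041 at 8 DAP (log2 fold change 3.17, edgeR adjusted p = 0.00421). Another lipid transfer protein gene, Migut.D00796, was at 0 to 0.693 in early (median 0) and at 67.4 to 3446 in late libraries (median 720). Its libraries did not overlap either, with a log2 fold change of 12.75 ± 0.80 (edgeR adjusted p = 7.84e-10).

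A GDSL-type lipase gene, Migut.H00072, of a family that in other plants includes enzymes that polymerize cutin, was at 0 to 0.271 in early libraries (median 0) and at 32.5 to 1770 in late libraries (median 344). Its log2 fold change was 13.02 ± 0.67 (edgeR adjusted p = 3.75e-10), with every late library above every early library. Further rises of this size were found in genes with 1 or 2 counts over all early libraries, where the fold rests on those counts. A second GDSL-type lipase gene, Migut.H02543, had 1 count in the early libraries and 6703 in the late libraries, a ratio of 7651 after scaling (95% counting interval 1373 to 302248). Migut.L00067 (CYP96A10, a cytochrome P450 whose family holds an enzyme of wax formation in Arabidopsis) had 2 against 5144 counts, a ratio of 2936 (812 to 24248). The C2H2 zinc finger gene Migut.J01863 had 2 against 6936 counts, a ratio of 3959 (1095 to 32694). All 3 were detected in every late library, from 2.00, 1.93 and 8.84 normalized CPM upward. A gene without a listed homologue, Migut.M01349, rose alongside, from 0 to 2.78 in early (median 0.182) to 144 to 11748 in late libraries (median 5771), with a log2 fold change of 13.19 ± 0.996 (edgeR adjusted p = 6.52e-09).

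The 8 largest falls among genes with a homologue were likewise chosen only where the libraries did not overlap. They held 2 genes of invertase and pectin methylesterase inhibitors, 2 of matrix peptidases, 2 of small cysteine-rich proteins, an expansin and a glycosyl hydrolase. Migut.I00636, a gene of the invertase and pectin methylesterase inhibitor family, was at 8.93 to 52.97 in early libraries (median 33.9) and at 0 to 0.927 in late libraries (median 0.0440). Migut.M00087 (C/VIF1, an inhibitor of vacuolar invertase, the enzyme that splits sucrose in the vacuole) was at 13.1 to 59.1 in early (median 33.2) and at 0 to 1.498 in late libraries (median 0). The libraries of the 2 sets lay far apart in both genes, and log2 fold changes were -8.76 ± 0.62 and -8.58 ± 0.71 (edgeR adjusted p = 1.54e-08 and 6.06e-07). In both, the last remaining counts were at 6 DAP and no count was left at 8 DAP.

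The SCR-like gene Migut.C01344 (SCRL11), of a family of small cysteine-rich secreted proteins, was at 54.6 to 147 in early libraries (median 116) and at 0 to 5.17 in late libraries (median 0.477), a log2 fold change of -6.96 ± 0.43 (edgeR adjusted p = 7.68e-10). Migut.M01516 (PDF2.5, a plant defensin) fell from 23.01 to 79.8 (median 28.3) to 0 to 5.42 (median 0.0507), at -6.65 ± 0.81 (edgeR adjusted p = 2.11e-06). Both small-protein genes were lower in each late library than in any early library. The matrix metalloproteinase gene Migut.N02351 and the matrixin family gene Migut.N02333, which encode peptidases of the extracellular matrix, fell by 6.82 ± 0.59 and 7.21 ± 0.65 on the log2 scale (edgeR adjusted p = 3.53e-08 and 5.25e-08). The expansin gene Migut.F01696 (EXPB4, wall loosening) and Migut.F01402 (GH9B9, of a family of endoglucanases) fell by 6.57 ± 0.44 and 6.02 ± 0.57 (edgeR adjusted p = 1.54e-09 and 9.09e-08), again without overlap. Migut.J00047 (LTP6), a gene with high counts throughout, was at 1672 to 4802 in early (median 1913) and at 475 to 1012 in late libraries (median 843), a log2 fold change of -1.75 ± 0.26 (edgeR adjusted p = 2.22e-05), a fall in the family of the largest rise.

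**Figure D3:**
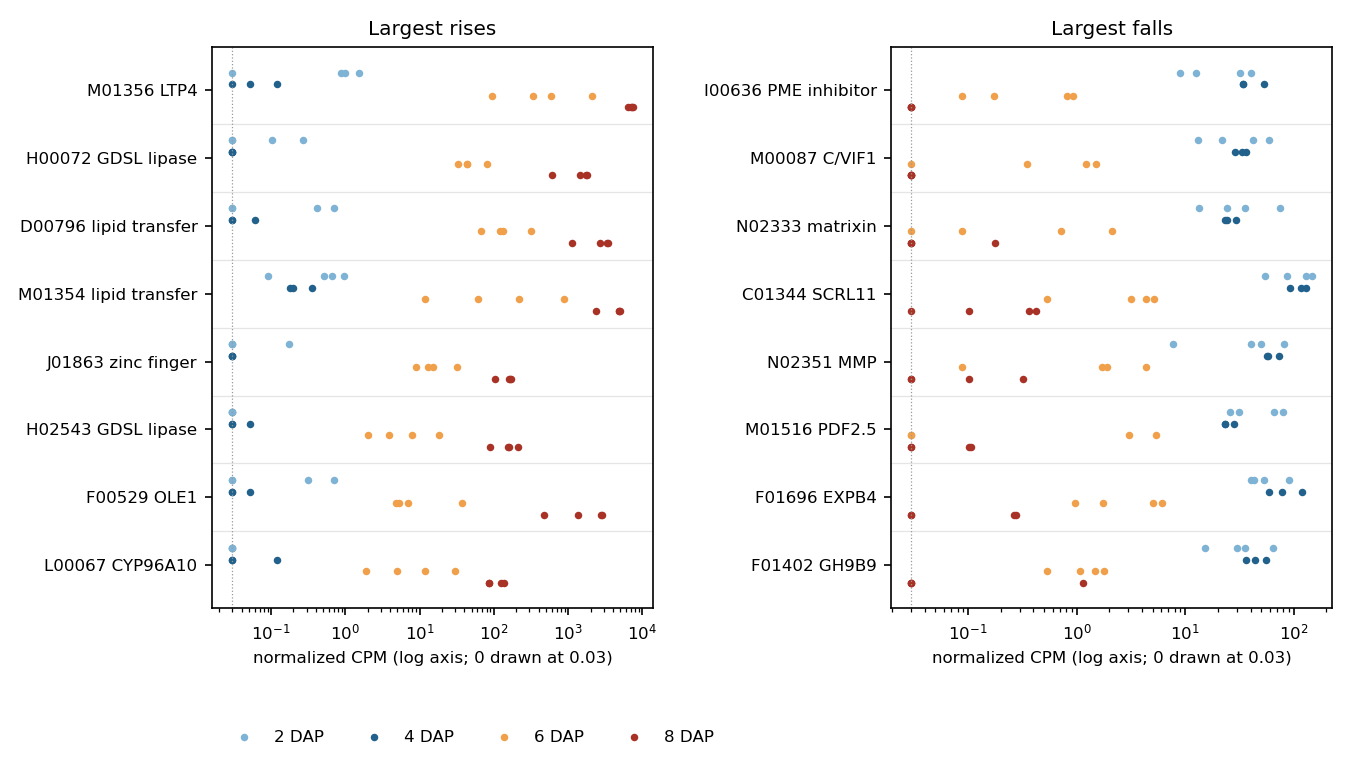
Normalized CPM (log axis, with values of 0 drawn at 0.03) of the 8 largest rises and the 8 largest falls in each of the 15 seed libraries, coloured by age. Genes were chosen only where early and late libraries did not overlap, so that the separation follows from the choice. In the left panel all blue points (2 and 4 DAP) lie left of all orange and red points (6 and 8 DAP). For LTP4 they are at 0 to 1.53 against 94.4 to 7445. In the right panel the early points lie right of all late points.

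Genes were then grouped by homologue. Most members come from tables that the study chose on these same samples, so that their direction is not independent evidence. Counts over the members found in its table of all genes are given where at least 4 of them were tested. Over all 20242 genes tested the shares to read these counts against are 11.3% higher and 10.3% lower late. Only a part of that table was used, 1823 genes with a homologue out of 28140 genes listed. Over the 1413 of them that were tested, 167 were higher and 147 lower. Counts from this part are thus no check over the whole genome.

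**Figure D4:**
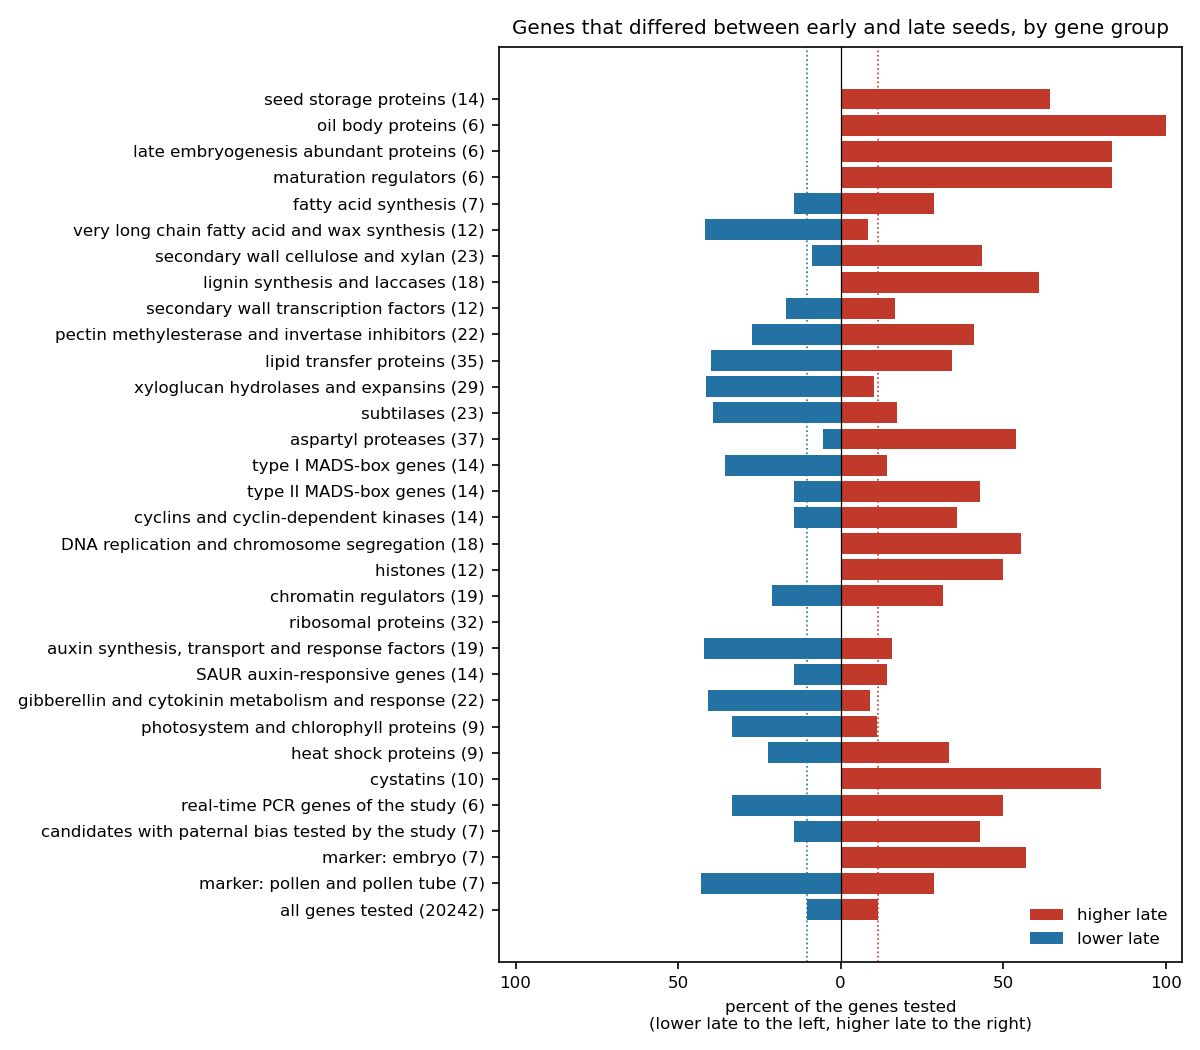
Percent of the tested genes of each group that were lower late (blue, to the left) or higher late (red, to the right) at an FDR of 0.01, with the number tested in brackets. Dotted lines mark the shares over all 20242 genes, 10.3% and 11.3%. All 6 oil body genes and 8 of 10 cystatins were higher late, and none of 32 ribosomal protein genes passed in either direction.

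Genes of seed reserves were near 0 in early seeds and rose late, most of all at 8 DAP. Of 14 seed storage protein genes (2S albumins, cruciferin-type and vicilin-type globulins, the nitrogen reserves of the seed), 9 rose and none fell, with a median log2 fold change of 7.21. All 14 were higher at 8 than at 6 DAP. Their summed level was 0.265 to 3.47 in early libraries (median 0.726), 1.13 to 25.1 at 6 DAP, and 9433, 852, 23861 and 23146 in 8 DAP replicates 1 to 4. The 8 DAP libraries thus differed among themselves by more than an order of magnitude, with replicate 2 the lowest. The albumin gene Migut.M01805 (SESA5) was at 0 to 0.881 in early (median 0) and at 0.0713 to 6089 in late libraries (median 96.2), a log2 fold change of 10.77 ± 1.52 (edgeR adjusted p = 2.14e-05). Early and late libraries overlapped in each of the 14 genes, since the lowest 6 DAP libraries were as low as early ones. Without 6 DAP replicate 3, which had the highest 6 DAP sum, 6 genes kept a rise and that of Migut.M01805 was lost (edgeR adjusted p = 0.0151, and 0.0141 within libraries 1 to 14). The 5 genes that did not pass had no or few counts at 2, 4 and 6 DAP.

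All 6 oil body genes rose (oleosins and a caleosin, the proteins that coat oil droplets), with a median log2 fold change of 7.61. Migut.F00529 (OLE1) was at 0 to 0.693 in early (median 0) and at 4.79 to 2823 in late libraries (median 256), a log2 fold change of 10.80 ± 0.90 (edgeR adjusted p = 2.14e-08). Migut.A00172, a second OLE1 homologue, was at 0 to 1.05 (median 0.415) and at 2.85 to 1127 (median 95.7), at 8.74 ± 0.69 (edgeR adjusted p = 1.08e-08). In these 2 genes and 2 others the sets did not overlap. All 6 were also higher at 8 than at 6 DAP. The summed level of the 6 genes was 13.4 in 2 DAP replicate 3 and 1.39 to 3.30 in the other early libraries.

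Of 6 tested genes of late embryogenesis abundant proteins, which protect cells from drying, 5 rose (median 3.84) and 3 did without 6 DAP replicate 3. The largest rise was in Migut.I00802, at 0.0902 to 0.433 in early (median 0.207) and 0.264 to 345 in late libraries (median 2.71). Its log2 fold change of 5.41 ± 0.78 (edgeR adjusted p = 1.73e-05) came with overlapping libraries, as its mean was 0.543 at 6 DAP and 206 at 8 DAP. For 5 of the 6 genes 8 DAP was above 6 DAP in the test of these ages.

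Among regulators of maturation, which switch on reserve genes in Arabidopsis embryos, 5 of 6 tested genes rose (median 3.58). Migut.D00511 (ABI3) had 1 count in the early libraries and 1448 in the late libraries, a ratio of 1653 (95% counting interval 296 to 65327), and was at 3.04 to 43.5 in late libraries. Migut.B01163 (WRI1, an activator of fatty acid synthesis) was at 1.86 to 8.06 in early (median 2.38) and at 20.6 to 208 in late libraries (median 79.0), a log2 fold change of 4.42 ± 0.39 (edgeR adjusted p = 3.66e-08). Migut.M01443, 1 of 3 tested homologues of NF-YB6 (the LEC1-like subunit of a transcription factor complex), was at 0.619 to 4.22 (median 1.45) and 8.99 to 305 (median 69.5), at 5.26 ± 0.43 (edgeR adjusted p = 1.54e-08). ABI3, WRI1 and Migut.M01443 had separate libraries and rose again from 6 to 8 DAP. Another NF-YB6 homologue, Migut.M01289, named here after its values were seen, was at 2.65 to 20.9 in early (median 4.54) and at 6.66 to 26.1 in late libraries (median 14.4), at 1.13 ± 0.31 (edgeR adjusted p = 0.00799). Its libraries overlapped and its highest mean was at 6 DAP. Its call was lost with equal weight per library (edgeR adjusted p = 0.173), with total counts only (edgeR adjusted p = 0.0131) and without any 1 of 2 DAP replicate 4, 4 DAP replicates 1 and 2, the 6 DAP replicates and 8 DAP replicates 2 and 3 (edgeR adjusted p = 0.0115 to 0.0274). The count of rises was 3 without any 1 of 2 DAP replicate 4, 4 DAP replicates 1 and 2, 6 DAP replicates 1 to 3 and 8 DAP replicate 3.

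Enzymes of fatty acid synthesis moved less. Of 7 genes, 2 rose and 1 fell, with a median of 0.75. Migut.D01961 (the E1 alpha subunit of pyruvate dehydrogenase, which makes acetyl-CoA) was at 45.7 to 129 in early (median 71.8) and at 66.9 to 528 in late libraries (median 197), at 1.31 ± 0.25 (edgeR adjusted p = 0.000354). Migut.I00607 (ACP4, an acyl carrier protein) was at 20.0 to 57.7 (median 33.5) and 3.95 to 9.27 (median 6.94), at -2.45 ± 0.34 (edgeR adjusted p = 1.25e-05). The 2 genes thus moved in opposite directions, and the libraries of ACP4 did not overlap.

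Of 12 genes of very long chain fatty acid and wax synthesis, 1 rose and 5 fell (median -0.74). Both extremes were homologues of the condensing enzyme KCS12. Migut.F02028 was at 0 to 0.958 in early (median 0.180) and at 5.85 to 81.7 in late libraries (median 37.3), at 7.05 ± 0.56 (edgeR adjusted p = 1.24e-08). Migut.D02144 was at 39.4 to 76.3 (median 50.2) and at 0.912 to 22.9 (median 8.77), at -3.08 ± 0.25 (edgeR adjusted p = 1.54e-08). The libraries of both were separate, in opposite directions. Without 2 DAP replicate 3 the count of rises was 3.

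Lipid transfer proteins changed in both directions. Of 35 tested, 12 rose and 14 fell, 8 and 11 of them without overlap, at a median of -1.16. The highest mean was at 2 DAP in 15 of them, at 4 DAP in 5, at 6 DAP in 7 and at 8 DAP in 8. The summed level was 3596 to 9539 in early libraries (median 3874) and 4351 to 24157 in late libraries (median 11978), the latter with 15923 to 24157 at 8 DAP. Besides LTP4 and Migut.D00796, Migut.M01354 was at 0.0902 to 0.953 in early (median 0.361) and 11.8 to 4971 in late libraries (median 1620), a log2 fold change of 11.50 ± 0.99 (edgeR adjusted p = 3.33e-08).

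Genes of the secondary cell wall peaked at 6 DAP. Of 23 genes of cellulose and xylan synthesis in secondary walls, 10 rose and 2 fell (median 1.53), and 18 had their highest mean at 6 DAP. Their summed level was 2828 to 3390 in the 6 DAP libraries and 370 to 779 in the 8 DAP libraries. In early libraries it was 93.5 to 341 in 6 libraries and 2006 in 2 DAP replicate 3. From 6 to 8 DAP 9 of the 23 fell and 1 rose. The COBRA-like gene Migut.D01624 (IRX6, cellulose deposition) was at 0.363 to 10.1 in early (median 1.08) and at 14.01 to 52.0 in late libraries (median 33.01), at 3.88 ± 0.61 (edgeR adjusted p = 5.04e-05), with separate libraries. The cellulose synthase gene Migut.J01374 (MUR10) was at 0.622 to 82.6 (median 3.61) and at 28.5 to 311 (median 131), at 3.34 ± 0.68 (edgeR adjusted p = 0.000702). Its overlap came from the highest early value, 82.6. The number of genes that rose was 13 without 2 DAP replicate 3, and 6 when 4 DAP replicate 2 or replicate 3 was left out. It was 2 when each library rather than each age had equal weight.

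Of 18 genes of lignin synthesis and laccases (the oxidases that couple lignin monomers), 11 rose and none fell (median 1.82), and 15 were highest at 6 DAP. The summed level was 6208 to 8144 at 6 DAP, 1627 to 2728 at 8 DAP, 477 to 1210 in 6 early libraries and 3417 in 2 DAP replicate 3. Migut.J00316 (LAC17) was at 0.363 to 174 in early (median 6.76) and at 46.5 to 1169 in late libraries (median 586), at 4.58 ± 0.83 (edgeR adjusted p = 0.000223). Migut.O00792 (CYP98A3, which hydroxylates lignin precursors) was at 0.363 to 88.8 (median 4.30) and at 114 to 298 (median 200), at 4.44 ± 0.70 (edgeR adjusted p = 4.92e-05). The first overlapped through its highest early library and the second did not. Leaving out 2 DAP replicate 3 gave 16 rises and leaving out 2 DAP replicate 2 gave 7. Without 4 DAP replicates 2 and 3, in turn, 5 and 6 genes rose, and 6 did without 8 DAP replicate 2. The count was 7 with the 15 seed libraries fitted alone and 3 with equal weight per library.

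Of 12 transcription factors of secondary walls, 2 rose and 2 fell (median 0.33), while 10 had their highest mean at 6 DAP and 9 fell from 6 to 8 DAP. Migut.D02049 (MYB54) was at 0 to 2.69 in early (median 0) and at 0.304 to 10.0 in late libraries (median 4.72), at 4.00 ± 0.90 (edgeR adjusted p = 0.00173). Its means were 8.98 at 6 DAP and 0.885 at 8 DAP, so that the rise over early seeds was carried mainly by 6 DAP. Migut.K00905, for which the study's tables give a homologue without a symbol, was at 0.596 to 7.45 (median 1.19) and 1.12 to 28.2 (median 10.1), at 2.23 ± 0.37 (edgeR adjusted p = 8.81e-05), and fell by 3.248 from 6 to 8 DAP (edgeR adjusted p = 9.8e-05).

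**Figure D5:**
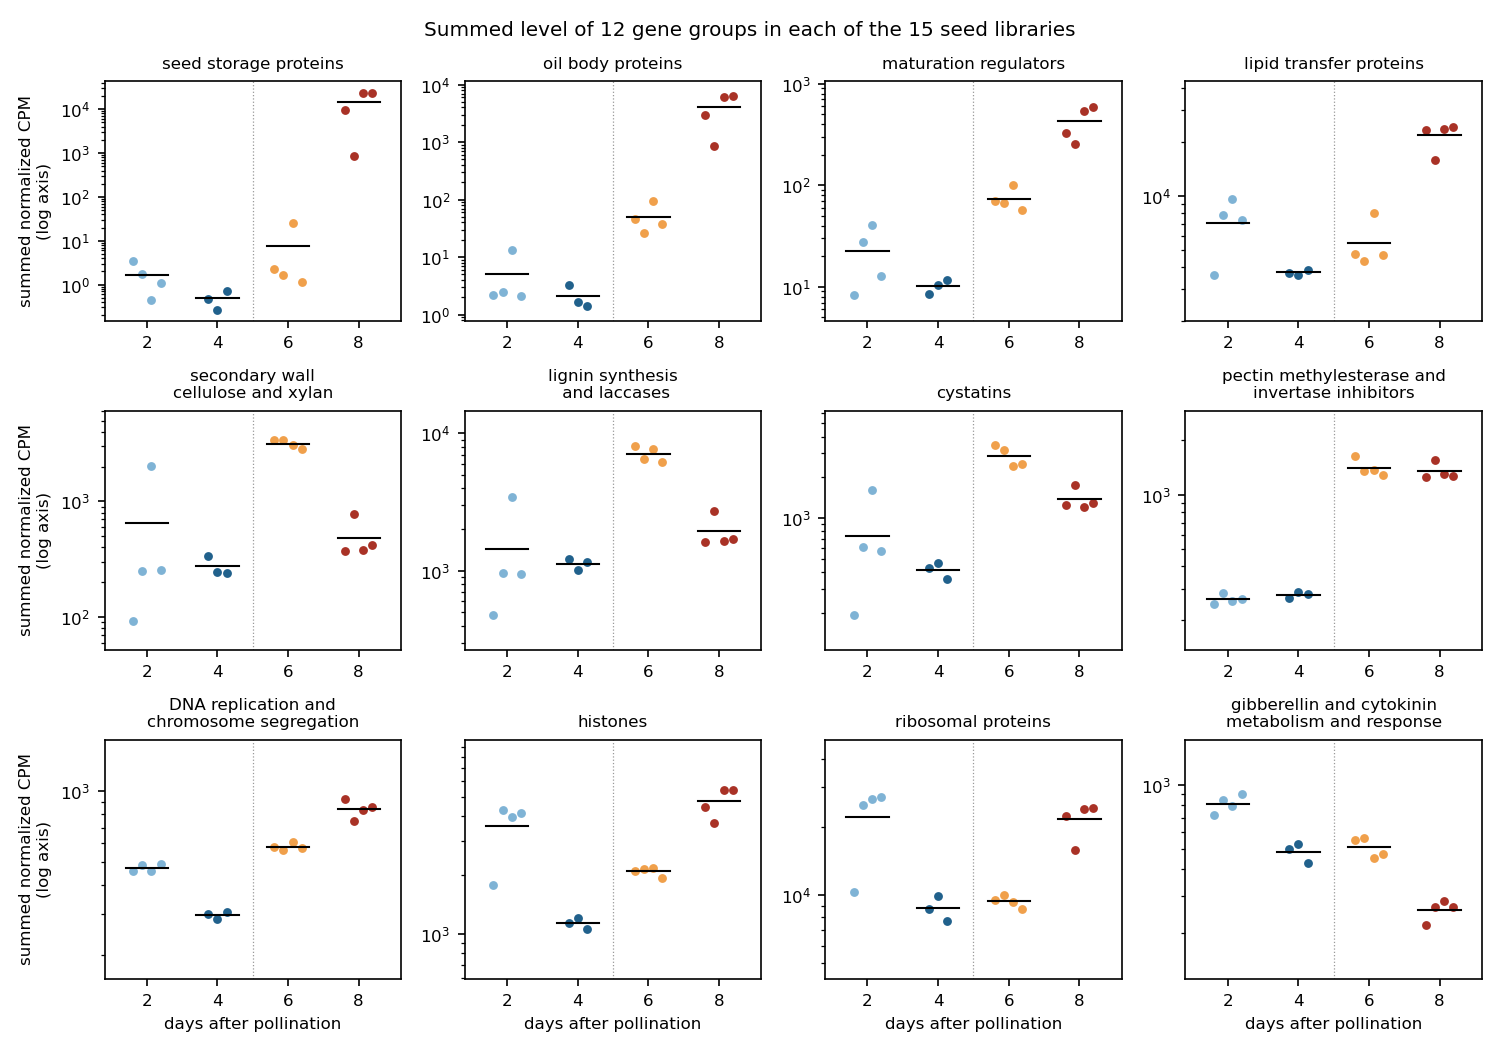
Summed normalized CPM (log axis) of 12 gene groups in each of the 15 seed libraries against days after pollination, with a line at the mean of each age and a dotted line between early and late seeds. Storage, oil body and regulator genes climbed to 8 DAP, secondary wall and lignin genes were highest at 6 DAP with 1 high library at 2 DAP (replicate 3), and ribosomal protein genes lay between 7680 and 27023 in early and between 8709 and 24197 in late libraries.

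Genes that act on pectin and hemicellulose parted into early and late members. Of 22 tested genes of pectin methylesterase and invertase inhibitors, which restrain enzymes of pectin and of sucrose, 9 rose and 6 fell (median -0.04). Their summed level was nonetheless 247 to 289 in early (median 265) and 1256 to 1630 in late libraries (median 1326), with no overlap. Migut.I00331 (PMEI2) was at 0.0518 to 2.25 in early (median 0.0902) and at 16.7 to 111.9 in late libraries (median 58.2), at 7.38 ± 0.62 (edgeR adjusted p = 1.48e-07), opposite to Migut.I00636 and C/VIF1 above. Of the 4 tested members from the table of all genes, 3 rose and none fell.

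Of 29 tested xyloglucan hydrolases and expansins, which loosen the primary wall, 3 rose and 12 fell (median -0.84), and 6 of 11 from the table of all genes fell while 2 rose. The summed level of the 36 members was nonetheless 1291 to 2947 in early (median 2155) and 1870 to 4855 in late libraries (median 2935). Its mean was 2028, 2300, 4138 and 2280 at 2, 4, 6 and 8 DAP. The largest falls were in 3 homologues of XTH3 (Migut.A01023, Migut.A00995 and Migut.A01024), at -6.88 ± 0.81, -6.84 ± 1.07 and -6.77 ± 0.63 (edgeR adjusted p = 4.01e-06, 8.07e-05 and 4.26e-07). Migut.A01024 was at 1.65 to 17.1 in early (median 9.07) and at 0 to 0.428 in late libraries (median 0.0531). The libraries of Migut.A01024 were separate, while those of the other 2 overlapped through their lowest early value. Whether reads were shared among these homologues of 1 gene was not tested. Without 2 DAP replicate 3, 5 members rose.

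Peptidases and their inhibitors changed with different signs. Of 37 tested aspartyl proteases 20 rose (54.1%) and 2 fell (median 2.29), and 3 of 9 from the table of all genes rose while 1 fell. Their summed level was 167 to 323 in early (median 282) and 483 to 1064 in late libraries (median 797). Migut.B01431 (CDR1 homologue) was at 0 to 0.311 in early (median 0.0516) and at 7.75 to 58.6 in late libraries (median 22.9), at 8.11 ± 0.47 (edgeR adjusted p = 3.87e-09), and separate. In 25 of the 37 the highest mean was at 6 DAP, and 16 fell and 5 rose from 6 to 8 DAP.

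Of 23 tested subtilases, serine peptidases of the wall space, 4 rose and 9 fell. The median of -1.33 becomes -0.81 when genes without a count in a set are put at the limit of 3 counts. The summed level of the 36 members went the other way. It was 2320.5 to 8459 in early (median 3894) and 6138 to 14635 in late libraries (median 8150). Its mean was 2853, 7374, 12077 and 6302 at 2, 4, 6 and 8 DAP. Migut.D00129 was at 0.722 to 6.59 in early (median 1.88) and at 42.5 to 1094 in late libraries (median 288), at 6.50 ± 0.51 (edgeR adjusted p = 1.15e-08). Migut.E01037 (SDD1 homologue) had 114 counts in early and 1 in late libraries, so that early seeds were 99.9 times higher (95% counting interval 17.57 to 3979). When 4 DAP replicate 1 or replicate 3 was left out, 2 subtilases rose. Of the 9 tested members from the table of all genes, none rose and 5 fell.

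All 10 cystatins, inhibitors of cysteine proteases, come from the study's own tables, and 8 rose while none fell (median 4.22). Migut.H02225 was at 0 to 2.08 in early (median 0.0902) and at 32.4 to 299 in late libraries (median 166), at 9.88 ± 0.60 (edgeR adjusted p = 6.32e-10), and rose again to 8 DAP. Migut.K01192 was at 0.0518 to 9.97 (median 0.265) and 1.46 to 701 (median 321), at 7.54 ± 1.01 (edgeR adjusted p = 7.49e-06), and fell by 4.65 from 6 to 8 DAP (edgeR adjusted p = 0.00299). Members of the family thus had different late ages, 8 of them with the highest mean at 6 DAP. The summed level was 1603 in 2 DAP replicate 3, 191 to 611 in the other early libraries and 1199 to 3456 in late libraries.

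Some genes of DNA replication and some core histones rose, while the others did not pass. Of 18 genes of replication and chromosome segregation, 10 rose and none fell (median 0.79), and 4 of 9 from the table of all genes rose. Migut.A00663 (POLA4, a primase subunit) was at 2.3 to 7.82 in early (median 4.15) and at 17.1 to 34.7 in late libraries (median 25.3), at 2.58 ± 0.24 (edgeR adjusted p = 7.11e-08). Migut.D02143 (PCNA2, the sliding clamp) was at 33.8 to 149 (median 85.8) and 147 to 415 (median 251), at 1.84 ± 0.24 (edgeR adjusted p = 4.71e-06). The first had separate libraries and the second almost had. With scaling by total counts 6 of the 18 rose.

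Of 12 histone genes, 6 rose and none fell (median 0.93). Migut.D00565 was at 8.23 to 95.6 in early (median 32.2) and at 104 to 562 in late libraries (median 240), at 3.04 ± 0.34 (edgeR adjusted p = 7.26e-07). The summed level of the 12 genes was 1780 in 2 DAP replicate 1, 3960 to 4295 in 2 DAP replicates 2 to 4, 1064 to 1212 at 4 DAP, 1936 to 2181 at 6 DAP and 3677 to 5445 at 8 DAP. The 2 DAP libraries of the series 15 to 20 thus lay near those of 8 DAP. Within libraries 1 to 14, 11 of 12 histone genes rose, and 10 did with the series as a covariate. Over all genes tested, 3869 of 19767 and 3249 of 20242 rose in these 2 settings, more than in the main test.

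Of 14 tested cyclins and cyclin-dependent kinases and their inhibitors, 5 rose and 2 fell (median 0.78). Migut.C00348 (CDKB2;1, a mitotic kinase) was at 8.23 to 24.7 in early (median 12.98) and 34.6 to 55.9 in late libraries (median 42.3), at 1.66 ± 0.20 (edgeR adjusted p = 1.47e-06). Migut.B00329 (KRP7, an inhibitor of such kinases) was at 111.9 to 159.2 (median 141) and 28.3 to 77.4 (median 48.03), at -1.55 ± 0.14 (edgeR adjusted p = 5.84e-08). Libraries of both were separate, in opposite directions. Of the 5 tested members from the table of all genes none rose and 2 fell.

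No ribosomal protein gene of 32 tested, 7 of them from the table of all genes, passed in either direction (median -0.06). In limma-voom 2 rose and 5 fell, with scaling by total counts 5 fell, and without 2 DAP replicate 1 2 fell. The summed level was 10332 in 2 DAP replicate 1, 25013 to 27023 in 2 DAP replicates 2 to 4, 7680 to 9879 at 4 DAP, 8709 to 10050 at 6 DAP and 15778 to 24197 at 8 DAP. The late set thus held an age of low and an age of high level, all within libraries 1 to 14. In the early set, the libraries of high level were 2 DAP replicates 2 to 4, which all lie outside libraries 1 to 14. The 2 DAP library within that series, replicate 1, was at 10332, against 7680 to 9879 at 4 DAP. The high level at 2 DAP therefore cannot be assigned to age rather than to library series. Within libraries 1 to 14 9 rose, and with the series as a covariate 13 did. Over all genes tested, 3869 of 19767 and 3249 of 20242 rose in these 2 settings.

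Among the listed hormone genes, most of them from tables chosen on these samples, more fell than rose. The rises included genes of auxin synthesis. Of 19 genes of auxin synthesis, transport and response, 3 rose and 8 fell (median -0.71). Migut.A00287 (YUC4, which makes auxin) had no count in any early library and 3786 counts in late libraries, where it was at least 220-fold higher than 3 counts per early library. It was at 1.69 at 6 DAP and 90.9 at 8 DAP. Migut.D01989 (TAR2, the enzyme one step before in auxin synthesis) had 1 count in early and 2615 in late libraries, a ratio of 2985 (95% counting interval 535 to 117941). In 6 DAP replicates 1 to 4, YUC4 had 2, 0, 67 and 8 counts and TAR2 had 2, 1, 70 and 6. Both auxin synthesis genes thus had at most 1 count in early seeds and few at 6 DAP outside replicate 3. Both rose from 6 to 8 DAP. Migut.D01038 (SLR, a repressor of auxin response) was at 6.76 to 34.7 in early (median 20.9) and at 0.912 to 5.92 in late libraries (median 2.86), at -2.96 ± 0.45 (edgeR adjusted p = 2.97e-05). Of the 5 members from the table of all genes 2 rose and 1 fell. Of 14 tested SAUR genes, small auxin-induced genes, 2 rose and 2 fell (median -0.51). None of the 5 tested members from the table of all genes passed. No SAUR gene rose without 4 DAP replicate 2 or 3, and 1 did without any 1 of 2 DAP replicates 2 and 4, 4 DAP replicate 1, 6 DAP replicates 1, 2 and 4, and 8 DAP replicates 3 and 4.

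Of 22 tested genes of gibberellin and cytokinin metabolism and response, 2 rose and 9 fell (median -1.05), and 16 had their highest mean at 2 DAP. The gibberellin-regulated gene Migut.B00162 was at 34.3 to 62.5 in early (median 45.1) and at 0.106 to 5.50 in late libraries (median 1.94), at -5.27 ± 0.33 (edgeR adjusted p = 7.68e-10). Migut.H01362 (GA2OX2, which inactivates gibberellin) was at 0 to 0.287 (median 0.0516) and at 0.713 to 25.5 (median 6.01), at 5.99 ± 0.67 (edgeR adjusted p = 3.16e-06). The libraries of both were separate. Summed levels were 428 to 906 in early (median 717.5) and 219 to 563 in late libraries (median 368). Of the 4 tested members from the table of all genes none rose and 1 fell, at a median log2 fold change of 0.12.

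Of 9 photosystem and chlorophyll genes 1 rose and 3 fell (median -0.32). Migut.H01922 (PORA, an enzyme of chlorophyll synthesis) was at 133 to 502 in early (median 190) and at 21.3 to 81.5 in late libraries (median 44.6), at -2.31 ± 0.30 (edgeR adjusted p = 4.43e-06). Of 9 tested heat shock protein genes 3 rose and 2 fell (median 0.40). Migut.A00100 (HSP17.6II, a small chaperone) was at 0.881 to 15.7 (median 2.395) and 33.7 to 46.0 (median 40.4), at 3.33 ± 0.44 (edgeR adjusted p = 6.2e-06). The chlorophyll gene and the chaperone both had separate libraries, in opposite directions. The only photosystem gene that rose did not pass without any 1 of the 4 DAP libraries, 6 DAP replicates 3 and 4, and 8 DAP replicates 1 to 3.

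MADS-box genes of type I, many of which act in the female gametophyte and endosperm of Arabidopsis, were lower late more often than higher: of 14 tested, 2 rose and 5 fell (median -1.72). Migut.B00479 (AGL62, which in Arabidopsis holds back endosperm cellularization) had 114 counts in early and 3 in late libraries, so that early seeds were 33.3 times higher (95% counting interval 11.1 to 164). Migut.I00404 (AGL29) was at 0 to 1.56 in early (median 0.787) and at 9.53 to 26.3 in late libraries (median 14.7), at 4.49 ± 0.44 (edgeR adjusted p = 1.55e-07). Of 14 tested MADS-box genes of type II, 6 rose and 2 fell (median 0.89). The classes differ in part from those of the study, which discusses Migut.K01032, placed here in type II, among its type I genes. Migut.B00557 (SVP) was at 0 to 0.433 (median 0.206) and 1.64 to 7.57 (median 3.198), at 4.14 ± 0.55 (edgeR adjusted p = 6.57e-06). The libraries of AGL62, AGL29 and SVP did not overlap. From the table of all genes, 4 type I members (0 higher, 2 lower) and 5 type II members (2 higher, 0 lower) were tested.

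Of 6 genes that the study chose for real-time PCR, 3 rose and 2 fell. Migut.B01455 and Migut.C01325, both homologues of AGL80, moved apart, at -3.995 ± 0.55 and 3.31 ± 0.52 (edgeR adjusted p = 9.15e-06 and 4.3e-05). The first kept its early level at 6 DAP and lost it at 8 DAP (log2 fold change -7.56, edgeR adjusted p = 9.82e-06), and with each library rather than each age given equal weight it did not pass (log2 fold change -1.30, edgeR adjusted p = 0.358). The polycomb gene Migut.M01812 (FIE) was at 29.9 to 81.0 in early (median 44.9) and at 24.3 to 35.5 in late libraries (median 30.1), at -0.60 ± 0.15 (edgeR adjusted p = 0.00464), a call that was lost within libraries 1 to 14 (log2 fold change -0.35, edgeR adjusted p = 0.083), with the series as a covariate (-0.44, edgeR adjusted p = 0.0219), with equal weight per library (edgeR adjusted p = 0.0135) and with the maternal plant as a block (edgeR adjusted p = 0.0123). It was also lost in the same test without 2 DAP replicate 4 (0.0112), 4 DAP replicate 1 (0.0104) or 2 (0.0168), 6 DAP replicate 1 (0.0107) or 4 (0.011), or 8 DAP replicate 3 (0.0112) or 4 (0.0107), these being edgeR adjusted p-values. Migut.E00987 (ULT1) was at 0 to 0.182 (median 0) and 0.743 to 4.49 (median 1.93), at 5.46 ± 0.77 (edgeR adjusted p = 3.69e-05). Migut.A00696 (DP1) was at 1.399 to 19.4 and at 0 to 33.2 and did not pass (log2 fold change -0.70 ± 0.57, edgeR adjusted p = 0.386). The 2 reference genes, Migut.A00226 (PEX4) and Migut.D02188 (EF1A), were at 0.11 ± 0.23 and 0.09 ± 0.30 on the log2 scale (edgeR adjusted p = 0.75 and 0.851). PEX4 passed with the series as a covariate (log2 fold change 0.65, edgeR adjusted p = 0.00114) and within libraries 1 to 14 (0.82, edgeR adjusted p = 0.000195).

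Of 19 tested chromatin regulators 6 rose and 4 fell (median 0.18). Among the 4 tested members from the table of all genes none rose and 1 fell. Migut.D02536 (CMT3, a DNA methyltransferase) was at 4.54 to 12.8 in early (median 7.48) and at 19.6 to 32.02 in late libraries (median 25.4), at 1.73 ± 0.17 (edgeR adjusted p = 1.43e-07). Its early and late libraries were separate, and its means at 6 and 8 DAP were 25.2 and 25.5. The number of falls was 1 without 4 DAP replicate 1 or 2 or 6 DAP replicate 1, and 2 without 2 DAP replicate 4, 4 DAP replicate 3, 6 DAP replicate 3 or 4, or any 1 of the 8 DAP libraries. Of the 7 candidates with paternal bias that the study tested, 3 rose and 1 fell. Migut.N01317, a beta-galactosidase gene whose homologue is BGAL13 in the study's gene tables and which its text calls BGAL11, was at 1.92 to 16.04 in early (median 3.97) and at 0 to 1.48 in late libraries (median 0.335), at -3.65 ± 0.70 (edgeR adjusted p = 0.000377). When 4 DAP replicate 2 or replicate 3 was left out, 1 of these candidates rose.

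Markers of seed tissues were read from short lists, and their part in the results above was not tested. All 3 endosperm markers rose. The ZHOUPI homologue Migut.N01183, a regulator of endosperm breakdown in Arabidopsis, was at 0.259 to 3.47 in early (median 0.862) and at 7.58 to 13.1 in late libraries (median 10.4), at 3.16 ± 0.41 (edgeR adjusted p = 1.44e-05). Migut.M01372 (ALE1, a subtilase of the endosperm that is needed for the embryo's cuticle) was at 0.674 to 5.75 (median 2.48) and 10.9 to 380 (median 62.2), at 4.53 ± 0.48 (edgeR adjusted p = 3.7e-07). Both separated the sets, and the summed endosperm markers were 0.933 to 8.41 in early and 19.7 to 398 in late libraries. Of 7 tested embryo markers, 4 rose and none fell, at summed levels of 28.2 to 76.7 and 89.1 to 407, and 2 of 9 did not enter the test. Markers such as ABI3 and Migut.M01443 are also among the maturation regulators above, so that the 2 counts are not separate results. Leaving out single libraries gave between 2 and 5 risen embryo markers. It was 2 without any 1 of 2 DAP replicate 4, 4 DAP replicates 1 and 2, 6 DAP replicates 1 to 3 and 8 DAP replicate 3.

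Of 4 seed coat markers, 2 rose, and their sum was 18.5 to 233 in early and 578 to 1338 in late libraries. Migut.C00171 (TT10, a laccase of the Arabidopsis seed coat) was at 15.2 to 144 in early (median 56.6) and at 414 to 904 in late libraries (median 590), at 2.97 ± 0.39 (edgeR adjusted p = 5.05e-06), and was separate. The chalcone synthase homologue Migut.G00630 was at 0 to 0.693 and at 0 to 0.637 and did not pass (edgeR adjusted p = 0.341). Each of the marker lists of endosperm, embryo and seed coat thus held genes that rose and none that fell.

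Of 7 pollen and pollen tube markers, 3 fell and 2 rose, the latter both MADS-box genes. Migut.F01826 (SKS12) was at 0.662 to 6.55 in early (median 2.95) and at 0 to 0.657 in late libraries (median 0), at -5.83 ± 1.06 (edgeR adjusted p = 0.000334). Migut.H01428, an Ole e 1-type gene, was at 0.383 to 5.11 (median 1.89) and 0 to 0.642 (median 0.0436), at -5.50 ± 1.04 (edgeR adjusted p = 0.00049). These 2 genes were thus low but present in every early library and had no count at 8 DAP. The summed level of the 7 markers, which include both MADS-box genes, was 3.35 to 21.5 in early and 10.0 to 37.2 in late libraries. The carpel marker, a CRABS CLAW homologue, was at 0.0605 in 4 DAP replicate 3 and had no count in the other seed libraries.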

How the data were processed

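RNA of whole hybrid seeds and of ovules was sequenced as stranded, paired-end libraries. The deposited files hold raw counts of reads per gene, 1 file per library, which the authors made by trimming reads with Trimmomatic, mapping them with STAR against a pseudo-reference of each parent (mismatches up to 0.04 of the read length), merging the alignments and counting uniquely mapped pairs per gene of the M. guttatus v2.0 annotation with featureCounts. Versions of these tools are not given in the sources used here. Keeping uniquely mapped pairs lowers counts of genes with near-identical copies.

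Counts of the 28140 genes were read for 20 libraries, and the age of each library was taken from its label. In the seed libraries 2813 of them had no count. Genes with over 1 CPM in at least 3 libraries were kept (20242). Library sizes were scaled by TMM, and the quasi-likelihood model of edgeR 4.0.16 (R 4.3.3) with robust dispersion was fitted over all 5 ages. Late minus early was the mean of the 6 and 8 DAP coefficients minus the mean of those at 2 and 4 DAP, called at an FDR of 0.01. For genes with no count in a set, a fold is given as at least the ratio to 3 counts per library, and with 1 to 3 counts as a ratio with a 95% counting interval. Genes detected and the share of the top 100 genes were compared by two-sided exact permutation over 225225 relabelings of the libraries (Python 3.11.15, scipy 1.17.1).

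Tested on simulated counts of the 20242 genes, the early against late comparison recovered 10 of 66 genes changed by 1 on the log2 scale (15.2%), 57 of 67 changed by 2 (85.1%) and 67 of 67 changed by 3, with 5 false calls. The changed genes had a mean CPM of at least 2 and were far fewer than the 4375 called in the data. Apart from the set change, all libraries shared 1 mean per gene, without differences between ages or library series. The simulation thus does not measure power or error in the real comparison. Alternatives were other scalings, filters, tests (limma-voom 3.58.1, DESeq2 1.42.0), weights, covariates and libraries left out. None of the 21 pairs of seed libraries of the same age agreed within sampling noise. The study lists maternal plants, which recur across ages, while the labels speak of pools from several plants. Deviations of libraries of 1 plant had a median correlation of -0.00279 over 21 pairs (-0.21 to 0.261), against -0.00421 over 63 pairs of different plants.

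Names come from homologues that the study lists for 4775 genes, 4348 of them tested. Genes in the text were taken from the 8 largest rises and falls past the FDR (mean log2 CPM at or above 3, no overlap, with a homologue; a further 3 each without need of one), the 4 with the highest levels in each direction, the 3 largest changes of each list, and the genes of the study's real-time PCR; not each gene so given is described, and 1 gene outside the rule is marked as such. The groups compared, the members and the lists were chosen with earlier results of these data known. Columns of the authors' own comparisons were not used, and sequences were not used here.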

Additional observations from a re-analysis of the deposited data

Results flagged for a closer look

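In 7 of 74 groups tested, 1 library lay far from the others, by its gap to the nearest library as a share of the range. The groups pooled 2 ages each and some lists shared genes, so that no rate by chance can be set against this count. All 7 concern summed levels in early seeds, in normalized CPM. In 4 of them the library was 2 DAP replicate 3. It had 13.43 for oil body proteins, where the other early libraries had 1.39 to 3.30. It had 2005.6 for cellulose and xylan synthesis of the secondary wall, against 93.5 to 341, and 3417.0 for lignin synthesis and laccases, against 477 to 1210. For cystatins it had 1603.1, against 191 to 611. In 2 groups the library was 2 DAP replicate 4, with 167.2 for aspartyl proteases, below the 262 to 323 of the others, and 1471.8 for the auxin genes, above 896 to 1056. The carpel marker had a count in 4 DAP replicate 3 only, at 0.06054, and its flag follows from that count alone. The cause of these values was not tested.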

How the results depend on the processing

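Across all settings tried, every gene called both there and in the reported test had the same direction, which passing in both fits of shared libraries makes likely in advance. Of the 4375 calls, 3009 were kept with equal weight per library, where 3210 genes were called. With the series as a covariate 3863 were kept, and within libraries 1 to 14 alone 3815. The 4375 genes that differed became 3531 to 4631 when single seed libraries were left out, 7033 in limma-voom, 1583 when a fold of more than 2 was required, 7277 within libraries 1 to 14, 5260 in DESeq2 and 6409 at an FDR of 0.05. Fitting the 15 seed libraries alone gave 3975 genes for 2 against 6 DAP, in place of 2587. With the maternal plant as a replicate block 4865 genes differed, and the age pairs gave 3354, 4627, 1713 and 6106 genes (2 and 6, 2 and 8, 4 and 6, 4 and 8 DAP), against 4238 genes between early and late seeds with the replicate number of the titles as a block. Of 70 genes named and called, 57 kept the call in every alternative. Equal weight per library ended it for 8, among them LAC17, Migut.J01374, MYB54, Migut.K00905 and Migut.D01961 (edgeR adjusted p = 0.0146, 0.0207, 0.0247, 0.0199 and 0.0129). Limma-voom ended it for Migut.I00802, SKS12 and Migut.N01317 (adjusted p = 0.091, 0.0175 and 0.0382), and libraries 1 to 14 alone for 3 including Migut.I00802 (edgeR adjusted p = 0.0114). The block for the plant ended the call of FIE alone. Genes without overlap numbered 4414 within libraries 1 to 14 and 1869 to 2380.0 with single libraries left out. The difference in genes detected turned to 124.2 on TMM-scaled CPM (exact permutation p = 0.156), was -650.9 within libraries 1 to 14 (exact permutation p = 0.0384) and lay between -281.1 and -44.08 over single libraries. The difference in the share of the top genes was 1.485 percentage points for the top 10 (exact permutation p = 0.019) 5.768 within libraries 1 to 14 (exact permutation p = 0.000505), 3.776 for the top 1000 (exact permutation p = 0.216), and 1.637 (without 2 DAP replicate 1) to 3.264 (without 2 DAP replicate 3) with single libraries left out. Log2 fold changes of genes that did not pass turned in Migut.A00226 (PEX4; -0.050 by total count, -0.066 with equal weight per library, -0.021 to 0.20 over single libraries), Migut.D02188 (EF1A; -0.14 by total count, -0.35 with the series as a covariate) and Migut.A00696 (DP1; 0.42 with equal weight per library, 0.30 with the series, 0.45 within libraries 1 to 14). The cause of each shift was not tested. Depth limits the genes at or under 0.181 to 0.273 CPM, where a fold is a bound or a counting ratio.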
